A study of Mus musculus with 6 samples.

Results

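Amino acid transporter genes were taken as every gene symbol of the deposited table in the solute carrier families Slc1, Slc3, Slc6, Slc7, Slc36, Slc38 and Slc43. The choice was by name, with no cut on a measured value, but earlier results of these data were known when it was made. This gave 58 of 32801 genes. Of these, 27 were expressed, meaning 10 or more normalized counts in at least 3 of the 6 libraries, among 16442 genes that met the same requirement. RNA was sequenced from thymic regulatory T cells (Treg), which hold other immune cells in check, of NOD mice (3 libraries) and C57BL/6 mice (B6, 3 libraries), all aged 3 weeks. NOD is an inbred strain that develops autoimmune diabetes spontaneously, and B6 is the strain of the mm10 reference genome. Every library was made from cells in the same gate, GFP- CD4+CD8- Thy1.1+. Neither the gene that drives GFP nor the one that drives Thy1.1 is named in those labels. The labels name no treatment, and they do not say whether the replicates came from different mice, and a p-value here reflects only how these libraries vary, which may be technical. The single comparison is NOD against B6.

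T cells build protein at a high rate once activated and import amino acids through a small set of carriers. Slc1a5 (ASCT2) exchanges glutamine and other small neutral amino acids with sodium, and Slc38a1 and Slc38a2 take up glutamine and alanine with sodium. Slc7a5 (LAT1) brings in leucine and other large neutral amino acids as a pair with the heavy chain Slc3a2 (CD98), which carries its light chains to the cell surface. Leucine, arginine and glutamine are sensed at the lysosome by the kinase complex mTORC1, and a shortage of amino acids activates the kinase GCN2 and the transcription factor ATF4, which binds the C/EBP-ATF response element in several transporter and enzyme genes. The transcription factor Myc, which binds the E-box, also raises transporter transcription in activated T cells.

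Promoter windows were available for 21 of the 27 expressed genes, as 28 windows of 250 bases before to 50 after a RefSeq transcription start (GRCm38.p6). None was matched for Slc1a5, Slc7a5, Slc38a1, Slc43a3, Slc6a6 and Slc6a8. The C/EBP-ATF response element, searched as TGATGNAA on both strands, was in 3 of the 28 windows, against 3.97% of all 32851 windows. One of these is from Slc1a4, and the other windows are an overlapping pair from Slc7a7 that share a match, so that the 3 windows hold 1 site in Slc1a4 and 2 in Slc7a7. The E-box CACGTG, which reads the same on both strands, was in 3 of the 28 windows, those of Slc43a1, Slc36a1 and Slc38a7, against 7.15% of all windows. No window of an expressed transporter held both motifs. Windows of 4 of these genes are shown from 100 bases before to 10 after the start, so that each match can be seen beside the start site. The sites in Slc7a7 are not shown. Capitals mark the motif, which is in reverse complement in Slc1a4. A match is a run of letters and not evidence of binding.
Slc43a1 (chr2:84840223-84840332, plus strand, E-box from position -64): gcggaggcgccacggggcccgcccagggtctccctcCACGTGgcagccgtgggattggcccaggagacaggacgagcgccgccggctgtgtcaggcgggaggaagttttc
Slc36a1 (chr11:55204240-55204349, plus strand, E-boxes from positions -31 and -3): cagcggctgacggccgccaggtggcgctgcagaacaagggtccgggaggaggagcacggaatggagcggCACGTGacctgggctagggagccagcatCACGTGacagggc
Slc38a7 (chr8:95853482-95853591, minus strand, E-box from position -34): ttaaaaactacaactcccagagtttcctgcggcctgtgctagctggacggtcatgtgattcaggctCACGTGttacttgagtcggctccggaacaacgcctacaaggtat
Slc1a4 (chr11:20332704-20332813, minus strand, C/EBP-ATF response element from position -4): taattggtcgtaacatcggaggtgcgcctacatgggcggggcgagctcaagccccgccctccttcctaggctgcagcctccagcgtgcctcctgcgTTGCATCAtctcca

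Values are given as normalized counts, which the authors obtained by scaling each library and rounding, and a library totals 16097369 to 17625903 of them. Sequencing depth itself is not given in the sources used here. Libraries are named by strain and the number in their column header, as NOD 2 for NOD library 2. The sorted cells carried the defining Treg transcripts, with Foxp3 at 1701 to 2310 normalized counts in NOD and 1784 to 2446 in B6, and all 12 T cell and Treg genes listed were expressed, with Cd3e, Thy1 and Trac called (2 higher and 1 lower in NOD). Markers of other cell types were read as summed levels. The 7 B cell markers (3 tested, 0 called) summed to 171 to 246 normalized counts in NOD and 184 to 244 in B6, and the 8 erythroid and platelet markers (1 tested, 0 called) to 36 to 46 and 21 to 43, with Ppbp at 0 throughout. The 7 NK and innate lymphoid markers gave 315 to 510 and 228 to 321 (4 tested, Il23r called higher and Tyrobp lower in NOD), and the 7 immature thymocyte markers 1424 to 1753 and 1218 to 1444 (5 tested, Cd8a called higher and Rag1 lower), of which Cd1d1 alone supplied 968 to 1454. The 10 epithelial and stromal markers gave 2629 to 2876 and 2111 to 2524, with 4 tested and Aire called lower. Most of this sum was Pecam1, at 2478, 2379 and 2697 in NOD and 2188, 1825 and 1929 in B6. Aire itself was near the limit of expression, at 3, 5 and 2 in NOD and 12, 13 and 23 in B6. It met the requirement of 10 or more in 3 libraries only through B6, so its call is not independent of that requirement. The same limit holds for the call of Tyrobp, at 5, 3 and 13 in NOD and 26, 18 and 44 in B6, which would not have met the requirement without B6.

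In these cells 3 of the 27 expressed transporter genes fell in NOD and 0 rose. The 27 were taken by name and include 2 that are not carriers, Slc36a3os and Slc7a6os, which are counted in every share given for them. The genes that fell were Slc1a5, Slc7a5 and Slc43a1, which carry glutamine or large neutral amino acids across the plasma membrane. Across all genes tested with limma-trend, 5.3% were called lower in NOD, 4.59% higher and 9.89% in either direction at an adjusted p below 0.05, against 11.1% of the transporters in either direction. The share of transporters called is thus close to that of all genes. At an unadjusted p below 0.05, 7 transporters were lower and 1 was higher, 29.6% of the 27 against 20.3% of all genes. The median log2 fold change (NOD minus B6, on the scale of log2(value + 1)) was -0.16 over the 27 transporters and 0.01 over all genes, and 18 of the 27 lay below 0 against 48.1% of all genes. The 3 NOD libraries lay wholly on one side of the 3 B6 libraries for 9 of the 27, of which 8 were lower in NOD. That is 33.3%, and the same holds for 24.1% of all genes tested.

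**Figure D1:**
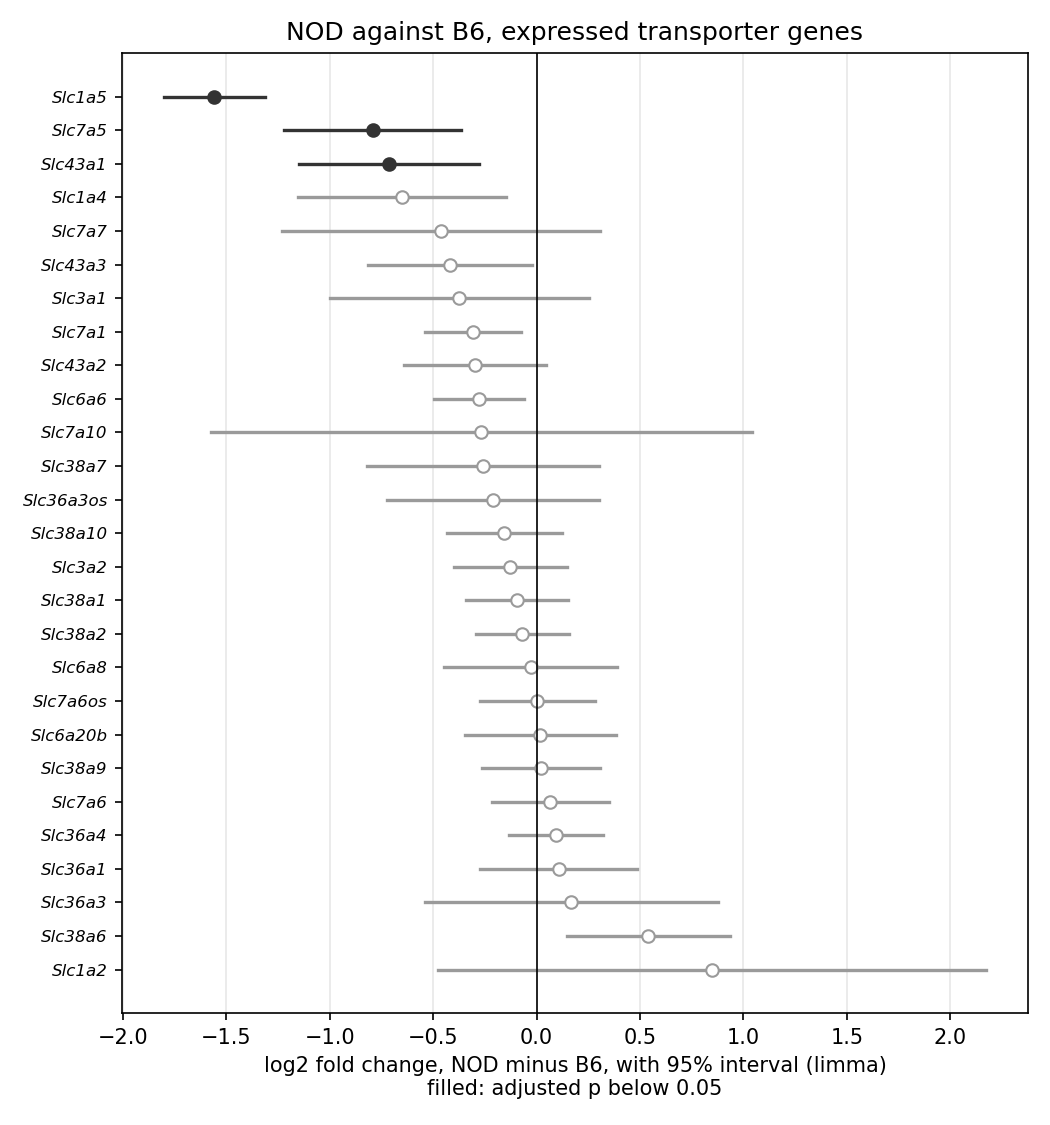
Log2 fold change of each expressed transporter gene, NOD minus B6 (x axis), with limma's 95% interval as a bar and genes ordered by fold change. The 3 filled points, Slc1a5 at -1.56, Slc7a5 at -0.79 and Slc43a1 at -0.71, passed an adjusted p below 0.05, and the other 24 did not.

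Slc1a5 showed the largest called difference among the transporters. This gene of the sodium-coupled neutral amino acid exchanger ASCT2 lies on chromosome 7 (16781340 to 16798274, plus strand, mm10). It stood at 1026, 843 and 1004 normalized counts in NOD libraries 2, 10 and 18, and at 2939, 2686 and 2805 in B6 libraries 4, 12 and 20. Every NOD library lay far below every B6 library, and the spread within a strain was small. NOD averaged 958 ± 99.9 and B6 2810 ± 127 normalized counts (SD, n = 3 each). This is 2.94-fold lower in NOD, with a log2 difference of -1.56 ± 0.11 (SE) and a limma adjusted p = 4.4e-06. The 95% interval ran from -1.80 to -1.31. With each library left out in turn the log2 fold change stayed between -1.61 and -1.47 and the gene was called every time. In the authors' deposited table the log2 fold change of Slc1a5 was -1.55 (adjusted p = 3.7e-16). Reads of both strains were aligned to the genome of B6. Whether that plays a part in this or any other difference given here was not tested.

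Slc1a5 was also set against other glutamine carriers in the same library. Slc38a2, the sodium-coupled carrier SNAT2, stood at 5613, 5767 and 6402 normalized counts in NOD and 6682, 5947 and 6013 in B6, ranges that overlap (log2 fold change -0.07, 95% interval -0.29 to 0.16, limma adjusted p = 0.80). Slc38a1 (SNAT1) stood at 2466, 2312 and 2893 in NOD and 2844, 2749 and 2557 in B6, also overlapping (-0.09, interval -0.34 to 0.15, adjusted p = 0.74). Per kilobase of exon, the ratio of Slc1a5 to Slc38a2 was 0.387, 0.310 and 0.332 in NOD against 0.932, 0.957 and 0.988 in B6. The ratio to Slc38a1 averaged 1.55 ± 0.15 against 4.28 ± 0.25 (SD, n = 3 per strain). Neither ratio overlapped between strains, which follows from the values of Slc1a5 above and is no separate support for its difference. Both ratios were chosen with the values of these genes known and are given without a test. A ratio within a library does not depend on the size factors.

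Slc1a4 (ASCT1), the close relative of Slc1a5 that exchanges alanine, serine, cysteine and threonine, was much less abundant. It stood at 112, 179 and 189 normalized counts in NOD and 205, 242 and 298 in B6. All NOD libraries lay below all B6 libraries, but the difference did not pass the test (log2 fold change -0.65 ± 0.23, limma adjusted p = 0.11). Slc1a2, the glutamate carrier best known from astrocytes, was near the limit of expression at 18, 52 and 18 against 25, 20 and 5 (0.85 ± 0.60, adjusted p = 0.51).

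**Figure D2:**
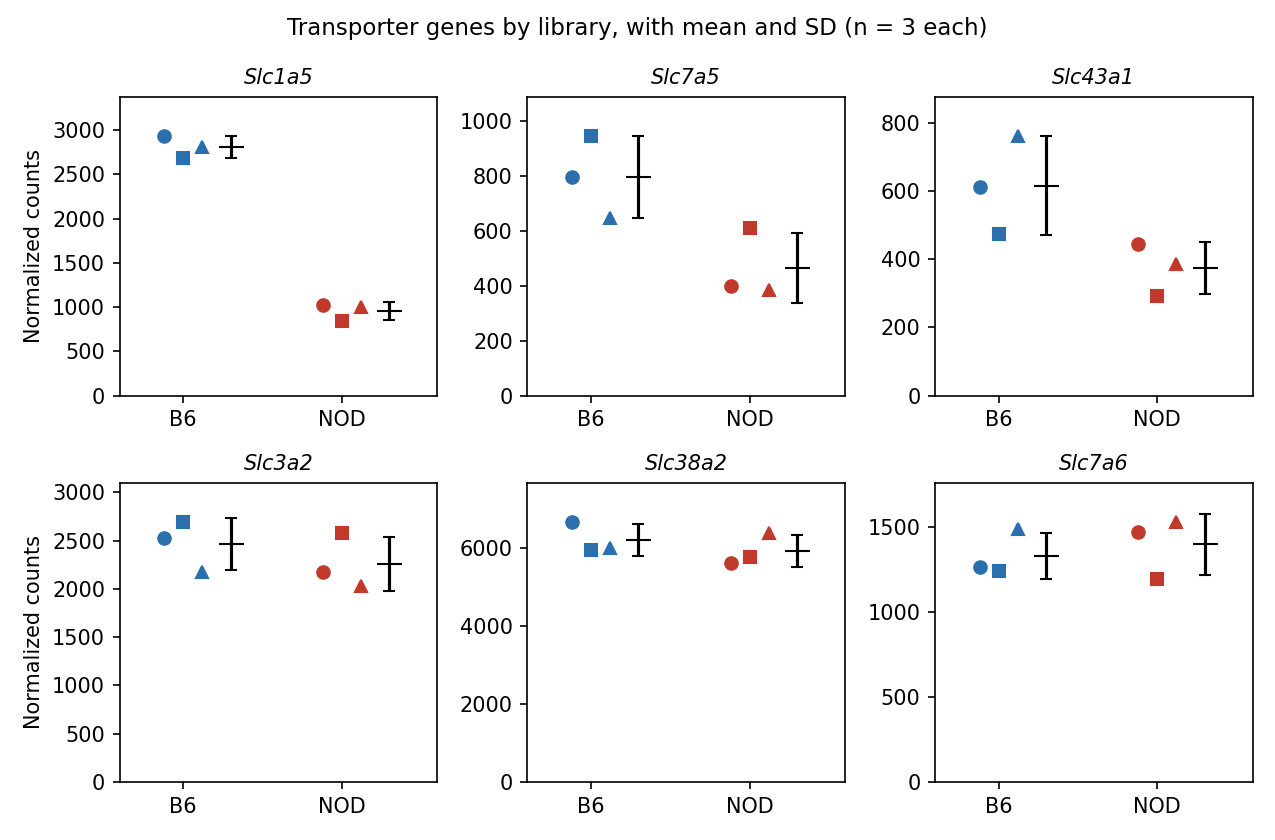
Normalized counts (y axes, from 0) of 6 transporter genes in each B6 library (blue) and each NOD library (red), with circles, squares and triangles for B6 libraries 4, 12 and 20 and NOD libraries 2, 10 and 18, and with mean and SD beside them. Slc1a5, Slc7a5 and Slc43a1 are lower in all 3 NOD libraries, while Slc3a2, Slc38a2 and Slc7a6 overlap between strains.

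Among the heterodimeric carriers, the light chain Slc7a5 passed the test and the heavy chain Slc3a2 did not, and the difference between their fold changes was not tested. Slc7a5 (chromosome 8, 121881150 to 121907694, minus strand), the LAT1 light chain, stood at 397, 611 and 385 normalized counts in NOD and 795, 946 and 647 in B6. The highest NOD library, 10, came close to the lowest B6 library, 20. The log2 fold change was -0.79 ± 0.20 (limma adjusted p = 0.024), or 1.73-fold lower in NOD. Leaving out NOD 2, NOD 18, B6 4 or B6 12 ended the call (adjusted p of 0.094, 0.12, 0.095 and 0.12), as did a fit without the variance trend (0.13), and without NOD library 10 the log2 fold change was -1.01 (adjusted p = 0.0020). In the authors' deposited table it was -0.78 (adjusted p = 0.0023).

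Slc3a2, the heavy chain CD98 that LAT1 needs at the surface, stood at 2169, 2573 and 2034 normalized counts in NOD and 2529, 2694 and 2171 in B6. The ranges overlap, and the log2 fold change of -0.13 had a 95% interval of -0.40 to 0.15 (limma adjusted p = 0.67). Slc7a6, the y+LAT2 light chain that exchanges arginine for neutral amino acids, stood at 1468, 1192 and 1529 in NOD and 1263, 1240 and 1486 in B6, overlapping again (0.07, interval -0.22 to 0.35, adjusted p = 0.85). The mixture of light chains was compared as well. Per kilobase of exon, Slc7a5 made up 24.2%, 37.7% and 22.6% of the 4 expressed light chains in the NOD libraries and 41.1%, 47.0% and 34.0% in the B6 libraries. These shares overlap, since NOD library 10 exceeds B6 library 20. Slc7a6 made up the larger part in every library, at 59.7% to 72.8% in NOD and 50.0% to 63.4% in B6. The light chains together came to 0.706 ± 0.0998 of the heavy chain in NOD against 0.758 ± 0.0662 in B6 (SD, n = 3 per strain), values that overlap.

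The other chains were scarce. Slc7a7, the y+LAT1 light chain, stood at 16, 27 and 25 normalized counts in NOD and 39, 27 and 28 in B6 (log2 fold change -0.46 ± 0.35, limma adjusted p = 0.54). Its gene model overlaps Oxa1l on the opposite strand, which averaged 969 normalized counts. Slc7a10, the Asc-1 light chain for small neutral amino acids, stood at 20, 7 and 29 against 41, 18 and 10, with no order between the strains (-0.27 ± 0.59, adjusted p = 0.88). Slc3a1, the rBAT heavy chain of the kidney cystine carrier, stood at 29, 43 and 46 against 52, 52 and 47 (-0.37 ± 0.28, adjusted p = 0.55), and its usual partner Slc7a9 was at 0 in all 6 libraries. Slc3a1 overlaps Prepl on the opposite strand, which averaged 313, and without a known strand setting such reads cannot be told apart. Slc7a11, the cystine and glutamate exchanger xCT, was at 0 to 4 and Slc7a8 (LAT2) at 1 to 5, both under the limit for testing.

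Large neutral amino acids also pass through the Slc43 family, which works without sodium or a heavy chain. Slc43a1 (LAT3, chromosome 2, 84838850 to 84863594, plus strand) stood at 443, 292 and 386 normalized counts in NOD and 610, 474 and 762 in B6. The strains did not overlap, though NOD library 2 lay just below B6 library 12. The log2 fold change was -0.71 ± 0.20 (limma adjusted p = 0.044), or 1.64-fold lower in NOD, with an interval of -1.15 to -0.28. Leaving out NOD 10, NOD 18, B6 4 or B6 20 ended this call too (adjusted p of 0.096, 0.11, 0.15 and 0.14). It also ended without the variance trend (0.17), without the low-value requirement (0.052) and with a mean of at least 50 required (0.052). In the authors' deposited table it was -0.72 (adjusted p = 0.0096).

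Slc43a2 (LAT4), which moves the same substrates, stood at 1015, 921 and 865 normalized counts in NOD and 1351, 1253 and 887 in B6, where B6 library 20 lay among the NOD libraries. It did not pass the test (log2 fold change -0.30 ± 0.16, limma adjusted p = 0.34), but it did without B6 library 20 (-0.48, adjusted p = 0.038). Slc43a3, a nucleobase carrier of the same family, stood at 330, 221 and 317 in NOD and 427, 335 and 386 in B6. Its strains did not overlap, by a margin of 5 normalized counts between NOD library 2 and B6 library 12, and it was not called (-0.42 ± 0.18, adjusted p = 0.22).

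**Figure D3:**
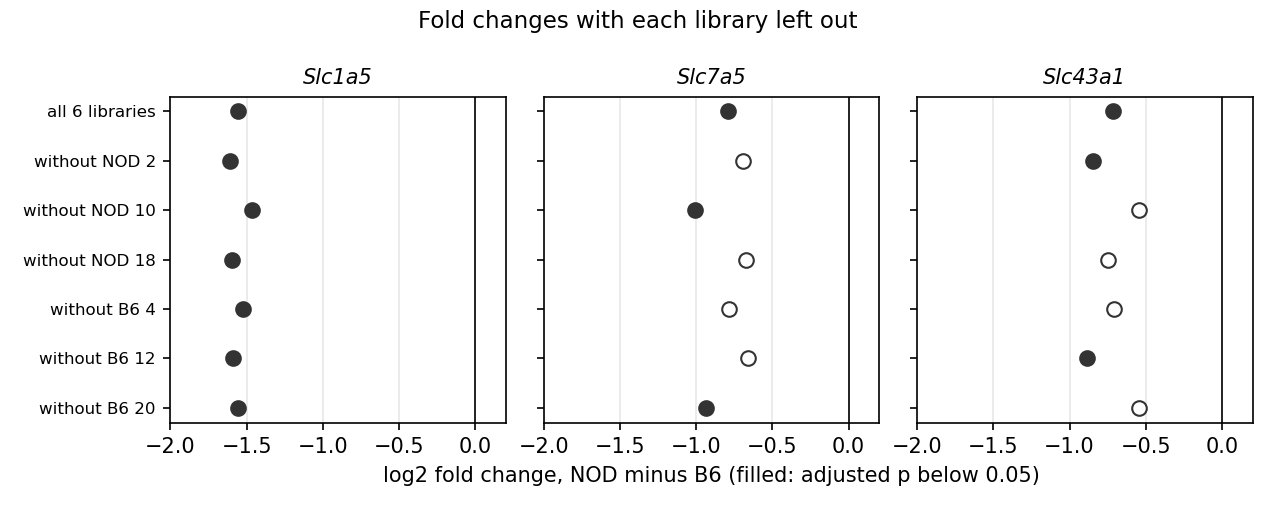
Log2 fold change, NOD minus B6 (x axes), of the 3 called transporter genes with all 6 libraries and with each library left out in turn, filled where the adjusted p was below 0.05. Slc1a5 stayed between -1.61 and -1.47 and was called in all 6 reduced fits, while Slc7a5 and Slc43a1 each lost their call in 4 of them.

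Cationic amino acids enter T cells mainly through Slc7a1 (CAT1), the arginine and lysine carrier. It stood at 2056, 1768 and 1977 normalized counts in NOD and 2546, 2359 and 2270 in B6. All NOD libraries lay below all B6 libraries, yet the log2 fold change of -0.31 ± 0.11 did not pass the test (limma adjusted p = 0.11). Slc7a2 (CAT2) and Slc7a3 (CAT3) were under the limit, at 0 to 5 and 0 to 6.

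Of the 17 Slc6 entries, which take up neurotransmitters, osmolytes and some amino acids with sodium and chloride, 3 were expressed. Slc6a6, the taurine carrier, stood at 1774, 1782 and 1666 normalized counts in NOD and 2174, 2003 and 2158 in B6. The strains did not overlap and the spread within each was small, and the log2 fold change of -0.28 ± 0.10 was not called here (limma adjusted p = 0.12), while the authors' deposited table gives Slc6a6 an adjusted p of 0.013 at a log2 fold change of -0.28. Slc6a8, the creatine carrier, stood at 185, 228 and 157 against 207, 165 and 206 (-0.03, interval -0.45 to 0.39, adjusted p = 0.96). Slc6a20b, of the proline carrier group, stood at 151, 168 and 178 against 163, 164 and 163 (0.02, interval -0.35 to 0.38, adjusted p = 0.97), and its gene model overlaps Sacm1l on the opposite strand, which averaged 1199 normalized counts.

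Of 4 expressed carriers of the lysosome and endosome, 0 were called by limma-trend, with voom weights or at an unadjusted p below 0.05. Over all genes tested with limma-trend, 9.89% were called and 20.3% had an unadjusted p below 0.05. A count of 0 among 4 genes cannot be told apart from these shares, and the group was formed after values were seen. Slc38a9, the lysosomal arginine sensor that signals to mTORC1, stood at 507, 419 and 488 normalized counts in NOD and 465, 476 and 449 in B6 (log2 fold change 0.02, 95% interval -0.26 to 0.30, limma adjusted p = 0.96). Slc36a4 (PAT4), a proline and tryptophan carrier of endosomes, stood at 1530, 1519 and 1500 in NOD and 1346, 1381 and 1547 in B6 (0.09, interval -0.14 to 0.32, adjusted p = 0.71). In both genes the strains overlap and the interval spans 0. Slc36a1 (PAT1), a proton-coupled lysosomal exporter, stood at 195, 230 and 178 against 206, 171 and 181 (0.11, interval -0.27 to 0.49, adjusted p = 0.81). Slc38a7 (SNAT7), the lysosomal glutamine exporter, stood at 156, 82 and 100 against 155, 116 and 122 (-0.26, interval -0.82 to 0.30, adjusted p = 0.67).

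Among the less studied members, Slc38a6 was the only transporter higher in all NOD than in all B6 libraries. It stood at 341, 367 and 270 normalized counts in NOD and 235, 253 and 184 in B6, a log2 fold change of 0.54 ± 0.18 that did not pass the test here (limma adjusted p = 0.094). The authors' deposited table gives Slc38a6 an adjusted p of 0.016 at 0.53. Slc38a10 stood at 1769, 2211 and 1776 against 2256, 2273 and 1874 (-0.16, interval -0.43 to 0.12, adjusted p = 0.58). Slc36a3 stood at 25, 37 and 32 against 28, 32 and 23 (0.17 ± 0.32, adjusted p = 0.85), and Slc36a3os, an antisense transcript that overlaps it, at 60, 57 and 59 against 68, 77 and 60 (-0.21 ± 0.23, adjusted p = 0.71). The last expressed row, Slc7a6os, is named for its position beside Slc7a6 and encodes a protein that is not a transporter. It stood at 777, 973 and 761 against 866, 819 and 804 (0.00 ± 0.13, adjusted p = 0.99).

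Levels were compared between genes per kilobase of exon. Slc38a2 (687 ± 45.4 normalized counts per kilobase, SD over 6 libraries) and Slc3a2 (669 ± 76.5) led, and their ranges overlap. In B6, Slc1a5 reached the same level, at 673 ± 30.3 per kilobase beside 703 ± 46.0 for Slc38a2 and 698 ± 75.8 for Slc3a2 (SD, n = 3). In NOD, Slc1a5 stood at 229 ± 23.9 per kilobase, with a mean below those of Slc7a6 (306 ± 39.3) and Slc38a10 (299 ± 39.4). Its NOD range overlapped those of Slc36a4 (232 ± 2.32) and Slc6a6 (206 ± 7.66), so that it has no clear order against them. Slc1a5 supplied 13.7% to 14.9% of the summed level of the 27 genes in B6 libraries and 5.17% to 6.50% in NOD libraries. Next came Slc6a6 (228 ± 25.5 over 6 libraries), Slc36a4 (225 ± 13.0), Slc7a6os (197 ± 18.4), Slc7a1 (188 ± 24.5) and Slc7a5 (170 ± 59.3). Down to Slc7a5, the only neighbours in this order whose ranges over 6 libraries did not overlap were Slc7a6 and Slc6a6. The level was 153 ± 13.3 for Slc38a1 and 28.0 ± 1.85 for Slc38a9, and below Slc6a20b (19.3 ± 1.02) the lowest was 1.75 ± 1.19 for Slc1a2. With the longest transcript in place of all exons, Slc38a2, Slc3a2, Slc1a5, Slc38a10 and Slc7a6 kept ranks 1 to 5, and Slc38a1 moved from rank 11 to 6.

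**Figure D4:**
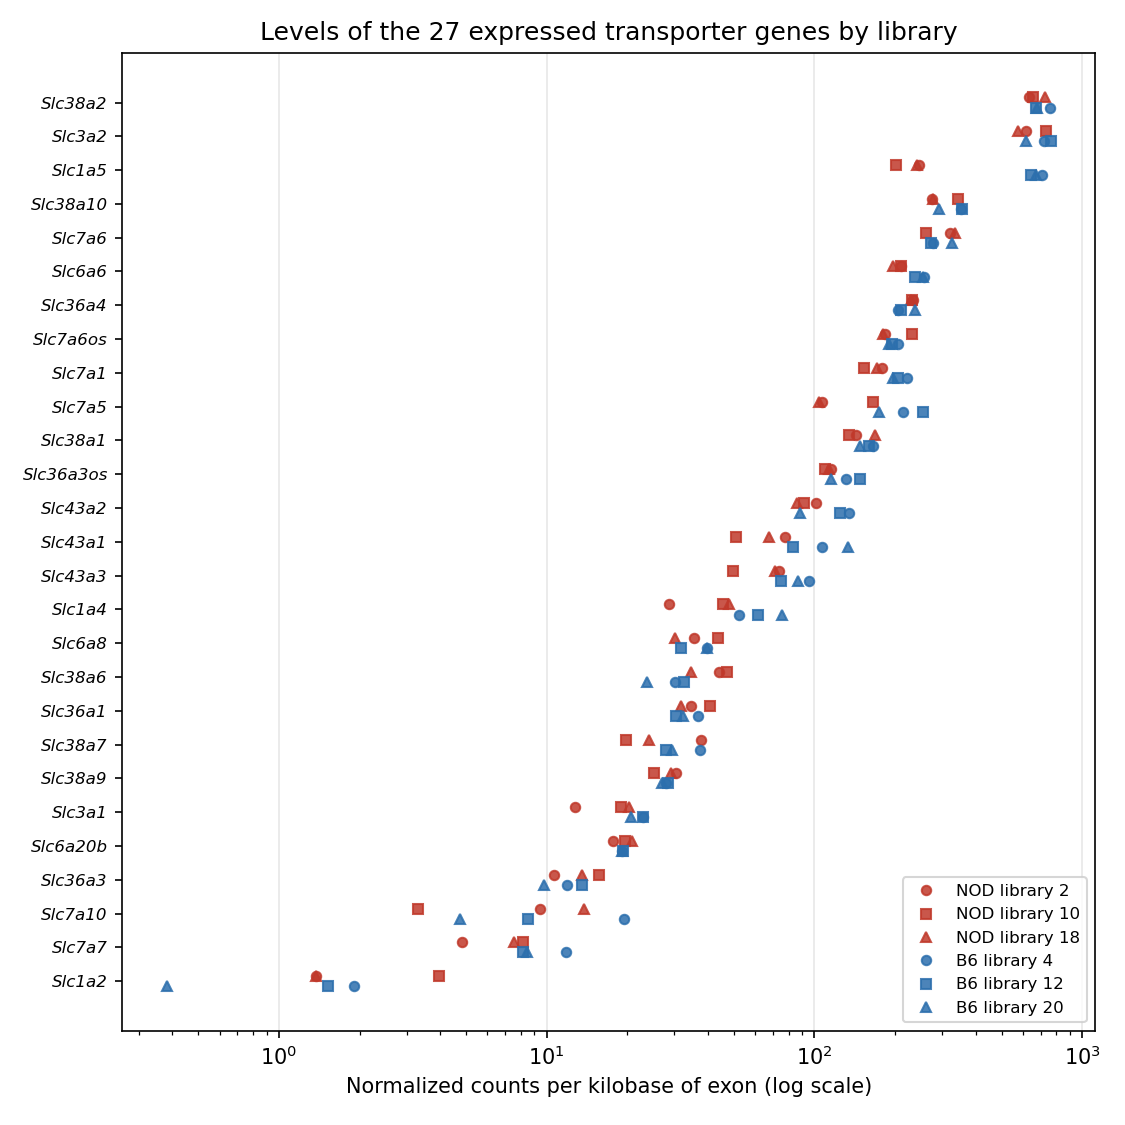
Normalized counts per kilobase of exon (x axis, log scale) of the 27 expressed transporter genes in each of the 3 NOD libraries (red) and 3 B6 libraries (blue), ordered by the mean over all 6. Slc1a5 is the gene whose strains lie farthest apart among the abundant ones, at 202 to 246 in NOD and 644 to 704 in B6.

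The other 31 genes were not expressed by the rule, and 29 of them stayed under 10 normalized counts in every library. Just inside the limit were Slc1a2 and Slc7a10, each with 10 or more in 5 libraries. Just outside were Slc6a4, the serotonin carrier, at 1, 1 and 0 in NOD and 1, 11 and 22 in B6, and Slc7a4 at 3, 12 and 8 in NOD and 1, 1 and 8 in B6. Slc6a16, Slc6a17, Slc7a9 and Slc7a14 were at 0 in all 6 libraries, which allows up to 3 reads in a library by counting error alone. The remainder were Slc1a1, Slc1a3, Slc1a7, Slc6a3, Slc6a5, Slc6a7, Slc6a9, Slc6a13, Slc6a14, Slc6a18, Slc6a19, Slc6a19os, Slc6a20a, Slc6a21, Slc7a2, Slc7a3, Slc7a8, Slc7a11, Slc7a15, Slc36a1os, Slc36a2, Slc38a3, Slc38a4, Slc38a8 and Slc38a11.

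Of 12 markers of dendritic cells and macrophages, 5 were expressed highly enough to be tested, and of these 1 (Zbtb46) was called lower and 0 higher in NOD. The summed level was 908 to 1161 normalized counts in NOD and 1369 to 1524 in B6, so that it moved in the same direction as Slc1a5, Slc7a5 and Slc43a1. Most of the sum is Zbtb46, at 962, 882 and 713 in NOD and 1215, 1272 and 1084 in B6. Itgax stood at 2 to 5 in NOD and 4 to 16 in B6, Adgre1 at 0 to 2 and 9 to 22, and Lyz2 at 3 to 15 and 13 to 38. Csf1r (15 to 19 and 14 to 25), Flt3 (4 to 7 and 5 to 9), Xcr1 (56 to 99 and 84 to 94), Cd68 (66 to 91 and 74 to 102) and Siglech (1 to 8 and 2 to 8) overlapped between strains, and Clec9a and Cd209a were at 0 to 3. The part of these or the other cell types in the transporter differences was not tested. In bulk RNA, fewer cells of a kind and less RNA per cell cannot be told apart.

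Genes that sense, use and answer to amino acids were read from the same fit in 5 lists, and the share called was 10.9% of 137 genes, near the 9.89% of all genes. Of 37 tested genes of amino acid sensing upstream of mTORC1, 1 rose and 2 fell in NOD (median log2 fold change 0.00). Flcn, which with its partner activates the Rag GTPases, stood at 1148, 1394 and 1079 normalized counts in NOD and 1699, 1832 and 1770 in B6 (log2 fold change -0.56 ± 0.12, limma adjusted p = 0.011). Rragd, one of those GTPases, stood at 232, 298 and 227 against 457, 432 and 324 (-0.67 ± 0.18, adjusted p = 0.033), and Sesn3, a sestrin, at 7580, 6758 and 7178 against 5495, 5846 and 5589 (0.34 ± 0.10, adjusted p = 0.046). All 3 calls were lost without NOD 2, NOD 18 or B6 12. Those of Rragd and Sesn3 were also lost without B6 library 4, and that of Sesn3 without B6 library 20, with adjusted p reaching 0.067 for Flcn, 0.16 for Rragd and 0.20 for Sesn3.

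Of 25 tested genes of the GCN2 and ATF4 response, 2 rose and 0 fell by limma-trend (2 were lower at an unadjusted p below 0.05, median log2 fold change -0.02). Trib3, a pseudokinase induced by ATF4, stood at 209, 205 and 161 normalized counts in NOD and 38, 55 and 50 in B6 (log2 fold change 1.99 ± 0.23, limma adjusted p = 0.00016). Stc2, a secreted glycoprotein induced by the same factor, stood at 97, 95 and 84 against 14, 6 and 13 (3.03 ± 0.36, adjusted p = 0.00020). Without the NOD libraries Stc2 would not have met the low-value requirement. The strains were far apart for both genes, which were called with any single library left out. No other gene of this list was called, Atf4 itself included (-0.05 ± 0.13, limma adjusted p = 0.90). The direction of these 2 genes is opposite to that of the 3 called transporters, and a link between them was not tested.

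Of 21 tested carriers of amino acids and peptides outside the named families, 1 rose and 2 fell (median log2 fold change -0.05). Slc15a2, the high-affinity peptide carrier PEPT2, stood at 4, 3 and 4 normalized counts in NOD and 2500, 1578 and 1531 in B6 (log2 fold change -8.62 ± 0.25, limma adjusted p = 6.8e-09). It met the low-value requirement only through B6. With NOD near 0, the size of this fold change depends on the 1 added to each value. As for the other genes, whether aligning NOD reads to the genome of B6 plays a part was not tested. Sfxn3, a mitochondrial serine carrier, stood at 1027, 1100 and 1009 against 645, 743 and 730 (0.57 ± 0.11, adjusted p = 0.0074). Slc15a3, a lysosomal peptide and histidine carrier, stood at 579, 448 and 378 against 793, 757 and 598 (-0.62 ± 0.17, adjusted p = 0.044), but not once NOD 10, NOD 18, B6 4 or B6 12 was left out (adjusted p up to 0.19).

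Of 41 tested enzymes of amino acid metabolism, 1 rose and 4 fell (median log2 fold change 0.05). Odc1, which makes putrescine from ornithine, stood at 21509, 25032 and 17965 normalized counts in NOD and 37043, 42743 and 37235 in B6 (log2 fold change -0.87 ± 0.14, limma adjusted p = 0.0017). Ahcy, of the methionine cycle, stood at 398, 334 and 398 against 690, 669 and 1115 (-1.09 ± 0.19, adjusted p = 0.0030). Both were called with any single library left out. Bcat1, the cytosolic branched-chain aminotransferase, stood at 357, 340 and 364 against 194, 223 and 247 (0.68 ± 0.15, adjusted p = 0.013), and leaving out NOD 2, NOD 18 or B6 4 ended that call (adjusted p up to 0.071). Kynu, a kynurenine-cleaving enzyme (-1.41 ± 0.38, adjusted p = 0.036), and Gclc, of glutathione synthesis (-0.45 ± 0.12, adjusted p = 0.039), lost their calls without NOD 18, B6 4, B6 12 or B6 20, and Kynu also without NOD library 10 (adjusted p up to 0.11 for Kynu and 0.19 for Gclc).

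Of 23 tested genes of cytosolic aminoacyl-tRNA synthetases and their scaffold proteins, 0 rose and 2 fell by limma-trend (0 were higher at an unadjusted p below 0.05, median log2 fold change 0.00). Vars, for valine, stood at 327, 405 and 386 normalized counts in NOD and 1611, 1508 and 1221 in B6 (log2 fold change -1.95 ± 0.14, limma adjusted p = 4.6e-06). Eprs, for glutamate and proline, stood at 4054, 4231 and 4035 against 7655, 8907 and 8710 (-1.03 ± 0.10, adjusted p = 4.6e-05). Both kept their calls with any single library left out. Myc, which was not in these lists, stood at 524, 434 and 420 in NOD and 712, 447 and 429 in B6, where the strains overlap (adjusted p = 0.71).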

How the data were processed

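Total RNA of sorted thymic Treg was made into libraries with a kit for total RNA, per the labels' protocols. Trimmomatic, STAR and DESeq2 are the tools, and mm10 the build, named in the submitters' processing notes. No version, counting program, annotation or strandedness is given in the sources used here. Both strains were thus aligned to the genome of B6. The deposited values are scores, namely read counts that the authors divided by DESeq2 size factors and rounded, per the file headers. The deposited table also holds the authors' log2 fold change and error, p-value (raw and adjusted), and a mean and a test statistic as scores. That comparison does not rest on these 6 columns alone, since its mean differs from theirs. Columns carry the strain but no replicate number of the labels, so they were grouped by strain only, and 0 sample columns were left unused.

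The low-value requirement was 10 or more normalized counts in at least 3 libraries, or 2 once a library was left out. The fit used limma 3.58.1 in R 4.3.3 on log2(value + 1), with a variance trend and no covariate beside strain. P-values are two-sided and were adjusted by Benjamini-Hochberg over all 16442 genes, with calls at an adjusted p below 0.05. The script was checked on simulated data. No replicate pair of a strain agreed within sampling noise (chi-square per gene 13.6 to 99.3), as reckoned from the scaled values, since depth is not given. The highest values were those of NOD 10, at 83.3 with NOD 2 and 99.3 with NOD 18. NOD 2 with NOD 18 gave 13.6, and the highest within B6 was 47.5. The median half-width of the 95% interval was 0.38 on the log2 scale for the transporters. Positions and exon lengths were taken by symbol from GENCODE M21 (GRCm38, which is mm10). Genes of overlapping models, which hold for 12 of the 27 expressed members, may share reads.

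The members, the lists and the tests were chosen with earlier results of these data known. The naming rule takes every expressed member, then called members of each partner list (6 at most). Myc, the single marker genes, the genes plotted by library, the ratios, the role groups and the promoter windows shown were chosen after values were seen. Alternatives changed the pseudocount, the low-value requirement, the scaling, the variance model and the libraries.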

Additional observations from a re-analysis of the deposited data

How the results depend on the processing

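The transporters called lower numbered 3 with either other pseudocount, each other scaling and voom weights, 2 with no low-value requirement or a mean of at least 50, and 1 without the variance trend, where Slc1a5 alone was called. They numbered 1 to 3 with a library left out, and 0 were called higher under any of these. Slc1a5 was called under all 15 of these alternatives, at log2 fold changes of -1.61 to -1.47. Partner genes called lower went from 10 to 5 without the trend and to between 5 and 9 with a library left out, and those called higher from 5 to between 3 and 6. Over all genes, leaving out a library gave 490 to 781 called higher (755 in all) and 569 to 1011 called lower (871). The cause of these shifts was not tested. Of 400 refitted values of single transporters, 18 changed sign, all in genes that were never called. Slc7a6os went to -0.0060 (upper quartile), -0.0063 (quantile normalization) and -0.034 (voom), Slc38a9 to -0.019 and Slc6a20b to -0.021 with voom. With a library left out they ranged from -0.11 to 0.068, -0.035 to 0.10 and -0.036 to 0.082, and Slc6a8 from -0.17 to 0.10, Slc7a10 from -0.72 to 0.28 and Slc7a6 from -0.0026 to 0.18. Expressed members numbered 25, 29 and 22 with 10 or more in all 6 libraries, in at least 1, and with 50 or more in at least 3. The least abundant genes have wide 95% intervals, from -0.48 to 2.17 for Slc1a2 and -1.23 to 0.30 for Slc7a7. The column headers carry numbers other than the labels' replicate numbers, so the labels give no pairing. A replicate block by the order of the header numbers (2 with 4, 10 with 12, 18 with 20), chosen after seeing the data, called 4 transporters lower (Slc1a4 added, adjusted p = 0.026) and 1 higher (Slc38a6, 0.032), and 1072 genes lower and 955 higher in all. The deviations from the strain means correlated by 0.0072, 0.18 and 0.13 in these pairs over 16442 genes. For NOD 10 and NOD 18 these were the highest correlations with any B6 library, while NOD 2 correlated best with B6 20 (0.098). These values do not settle whether the libraries are paired, and the unpaired fit was kept as the reported one.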

Other observations

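The authors' deposited table puts 5 of the 27 expressed transporters at an adjusted p below 0.05, 1 higher (Slc38a6) and 4 lower in NOD (Slc1a5, Slc7a5, Slc43a1 and Slc6a6). Slc1a4 has a deposited mean of 84.7 beside a mean of 204 over the 6 columns, and the deposited mean of Slc38a2 is 8270 beside 6071.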
